A study of Homo sapiens with 4 samples.

Results

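The genes described here are transcriptional targets of p53, the tumour suppressor protein that is stabilised after DNA damage and other stresses and then switches on genes for cell cycle arrest, apoptosis, DNA repair, redox control and its own shutdown. They were chosen by symbol from a list of 37, and each was represented by the brightest of the probe sets paired with that gene alone, by the mean of the 4 arrays. Of the 37, 35 were measured, out of 18132 genes in all. BTG2 and FDXR were paired with no probe set in the annotation used and were not analysed here, and neither was the gene of p53 itself, so the pathway is described through its targets.

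The measurements come from HCT116 and Caco-2 cells, 2 established human colorectal cancer lines. The cells received either siRNA against BORIS, carried by a lipid reagent, or a negative siRNA. The time with siRNA was 3 days for each of them. BORIS is the product of CTCFL, a testis paralog of the insulator protein CTCF that some tumours also make. The 4 groups were HCT116 with BORIS siRNA, HCT116 with negative siRNA, Caco-2 with BORIS siRNA and Caco-2 with negative siRNA, each measured on 1 Affymetrix PrimeView array, a 3' expression array. The labels name a negative siRNA, not untreated cells, as the control in both lines, and the sources used here give no siRNA sequences and do not say how many cultures a group came from.

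In most cells p53 is held low by MDM2, a ubiquitin ligase whose gene p53 itself switches on, and the same loop holds the phosphatase PPM1D. Among the best known outputs are CDKN1A, the inhibitor of cyclin-dependent kinases called p21, and the BH3-only proteins encoded by BBC3 (PUMA) and PMAIP1 (NOXA). From the literature, as background, HCT116 carries wild-type p53, whereas Caco-2 carries a nonsense mutation and makes no full-length p53. The arrays do not read the genotype or the activity of p53, and its part in any difference below was not tested.

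Expression is given as the log2 value of a probe set. A probe set was taken as at background when it lay below the 95th percentile of the olfactory receptor probe sets of its array, which was 5.15, 5.09, 4.80 and 5.05 on the arrays of the 4 groups in the order above. Array medians lay between 5.46 and 5.48. EPCAM, an epithelial surface protein, read 12.18 and 12.10 in HCT116 with BORIS and negative siRNA and 12.82 and 12.83 in Caco-2. Of 12 colorectal epithelial markers, 8 were above background on each HCT116 array and 10 on each Caco-2 array. The villin gene VIL1 and the galectin gene LGALS4 were below background in HCT116 and at 9.33 or more in Caco-2, CDX1 and GPA33 were at background on all 4 arrays, and CDH1, the E-cadherin gene, CDX2 and KRT19 were higher in HCT116 by 1.98, 1.59 and 0.60. Of 7 genes made by Caco-2 cells when they differentiate like enterocytes, 6 (APOA1, APOB, FABP1, ALPI, SI and AFP) were below background on both Caco-2 arrays. No fibroblast marker of 6 was above background on any array, and of 5 blood cell markers measured 1 was above it in HCT116 and 2 in Caco-2, among them LYZ, the lysozyme gene, at 13.12 and 13.26 in Caco-2. Of 4 endothelial markers, VWF and KDR were above background on every array, at 6.05 or less, and PECAM1 and CDH5 on none. The brightest CTCFL probe set read 4.93 and 5.07 in HCT116 with BORIS and negative siRNA and 5.09 and 5.07 in Caco-2, all near the background levels, so these arrays do not show the extent of the knockdown. CTCF itself differed by -0.33 with BORIS siRNA in HCT116 and by -0.03 in Caco-2.

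The p53 targets differed most between the lines. Of the 33 members tested, 23 were higher in HCT116 and 0 were lower in the limma fit of the line difference with siRNA as a block, at an adjusted p under 0.05. That is 69.7% of the members tested, where 19.4% of the 11165 genes tested were higher in HCT116, 19.8% lower and 39.2% either. SPATA18 and EDA2R, the 2 measured members left untested, lay at background on every array, so no fold is given for them. The median line difference of the tested members was 0.91 on the log2 scale, against 0.01 for all tested genes. The poly-A spike-in controls, bacterial RNAs added before labelling, also read higher in HCT116, at 7.84 and 7.07 with BORIS and negative siRNA against 6.29 and 6.35 in Caco-2, a mean difference of 1.13, and their part in the line differences was not tested. Without any filter on dim probe sets the medians were 0.89 over all 35 measured members and 0.05 over all genes. For 27 of the 33 members both HCT116 arrays read above both Caco-2 arrays, which held for 36% of all tested genes. CCNG1 was the 1 member with both HCT116 arrays below, where the share of all tested genes was 35.1%, and 5 members overlapped. Within a line the arrays differ in siRNA. The spread behind these tests is therefore how far the siRNA differences of the lines depart from each other. It has 1 residual degree of freedom per gene. The limma fit draws it towards a trend over all genes, which brings the total degrees of freedom to 6.49. The p-values measure only that spread, taken from the gene and the trend together. With 3 arrays no residual degree of freedom remains for both terms, so every value given for a left-out array comes from a fit with line as the only term, in which the array and the siRNA block were dropped together. Dropping the block alone, with all 4 arrays, ended the calls of PLK3, TRIAP1 and TNFRSF10B (limma adjusted p = 0.0530, 0.139 and 0.0521) and added none. In bulk RNA, fewer cells making a transcript and less of it per cell cannot be told apart.

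**Figure D1:**
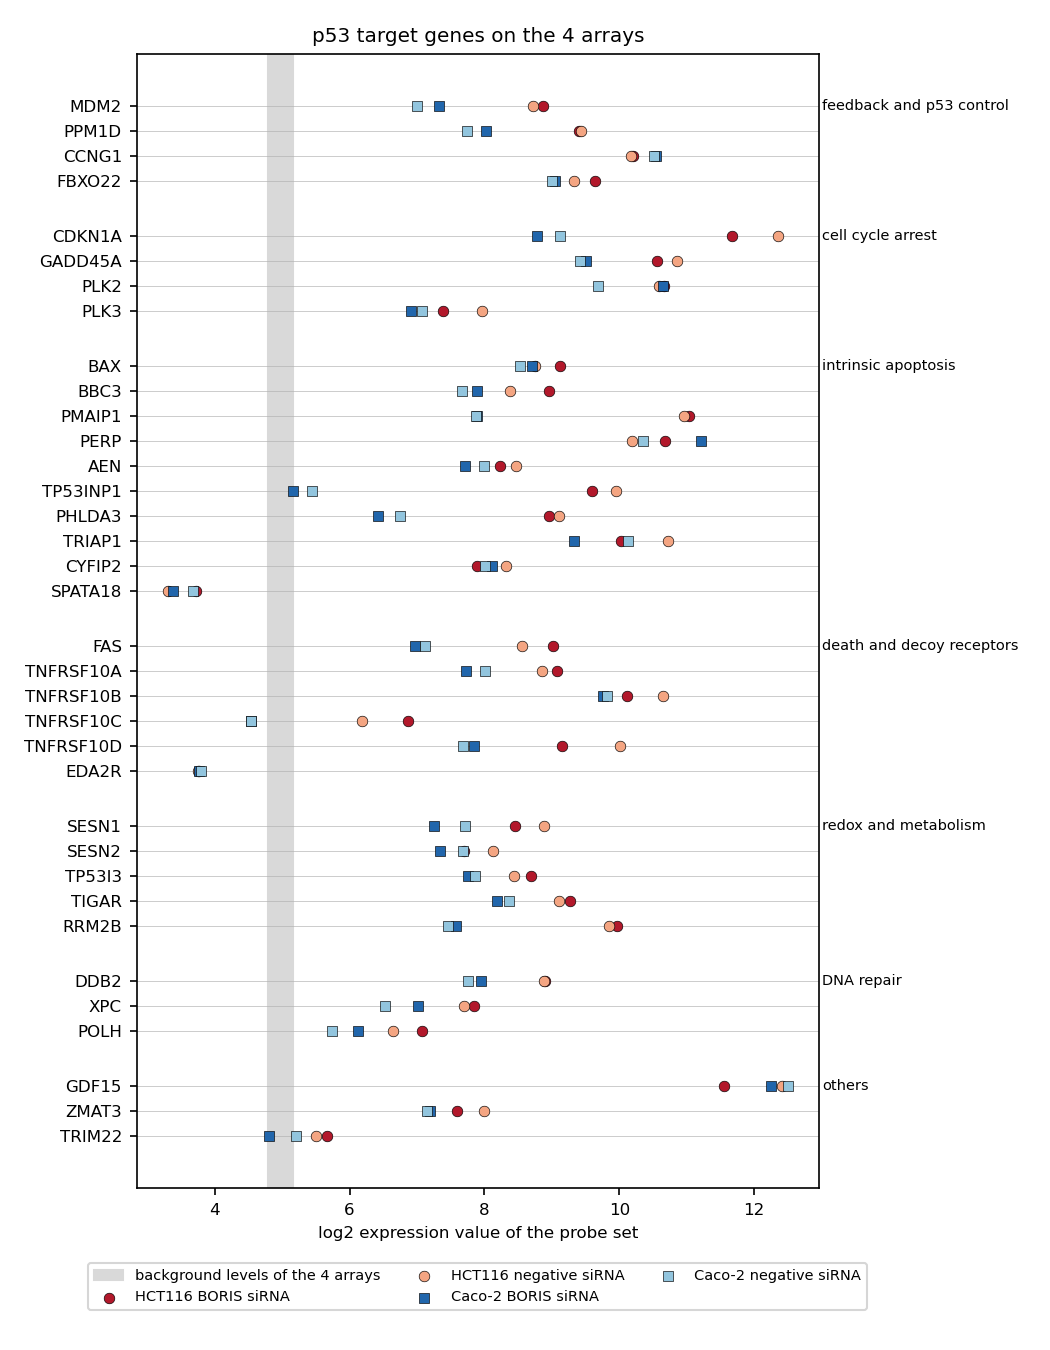
Log2 expression value (horizontal axis) of each measured p53 target gene on the 4 arrays, 1 point per array, grouped by role; circles are HCT116, squares are Caco-2, dark colours are BORIS siRNA, light colours are negative siRNA, and the grey band spans the background levels of 4.80 to 5.15. The 2 circles lie right of the 2 squares for 27 of the 33 tested genes, and SPATA18 and EDA2R lie left of the band.

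The feedback genes MDM2 and PPM1D were both higher in HCT116. MDM2 read 8.86 and 8.73 in HCT116 with BORIS and negative siRNA, against 7.32 and 7.0 in Caco-2, a line difference of 1.63 (SE 0.18, limma adjusted p = 0.000878). The array values of the lines did not overlap, and all 10 MDM2 probe sets that read above background on at least 1 array were higher in HCT116, by 0.62 to 2.13. PPM1D, which encodes the phosphatase WIP1, read 9.40 and 9.43 in HCT116 and 8.03 and 7.74 in Caco-2, a line difference of 1.54 (SE 0.18, limma adjusted p = 0.00132). The other members of this group did not pass: CCNG1, the cyclin G1 gene that recruits a phosphatase to MDM2, differed by -0.34 (95% interval -0.69 to 0.01) and FBXO22, an F-box gene, by 0.46 (0.04 to 0.88). Without the HCT116 BORIS array and the siRNA block CCNG1 passed as lower in HCT116, at -0.36 with a limma adjusted p of 0.0427. FBXO22 passed without the HCT116 negative array and the block, at 0.62 with an adjusted p of 0.0103.

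Among the genes of cell cycle arrest, CDKN1A had the widest line difference. It read 11.67 and 12.35 in HCT116 with BORIS and negative siRNA, against 8.78 and 9.12 in Caco-2. The line difference was 3.06, an 8.34-fold ratio (SE 0.16, limma adjusted p = 3.96e-05), and its other probe set gave 3.08. GADD45A, which encodes a stress protein that inhibits CDK1, read 10.56 and 10.86 in HCT116 and 9.51 and 9.41 in Caco-2, a line difference of 1.25 (limma adjusted p = 0.00212). The polo-like kinase gene PLK3 was higher in HCT116 by 0.68 (limma adjusted p = 0.0335) and lost this call without the block together with any 1 of 3 arrays, at 0.39 without the HCT116 negative array, 0.61 without the Caco-2 BORIS array and 0.76 without the Caco-2 negative array, with adjusted p-values of 0.149, 0.223 and 0.114. PLK2, a polo-like kinase gene of the same family, differed by 0.45 (95% interval -0.09 to 1.0) and did not pass. Its line difference was 0.91 between the negative siRNA arrays and 0.00 between the BORIS siRNA arrays, and without the Caco-2 BORIS array and the siRNA block it stood at 0.94 and passed, with an adjusted p of 0.0172.

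The line differences of the intrinsic apoptosis genes ran in a graded series, from 4.47 for TP53INP1 to -0.35 for PERP. TP53INP1, whose product supports p53 phosphorylation and autophagy, read 9.59 and 9.95 in HCT116 with BORIS and negative siRNA, against 5.16 and 5.44 in Caco-2, where it stood just above background. Its line difference of 4.47, a 22.2-fold ratio, was the highest of the members (SE 0.18, limma adjusted p = 1.59e-05), and its dimmer probe set gave 0.66. PMAIP1 read 11.04 and 10.95 in HCT116 and 7.88 and 7.87 in Caco-2, a line difference of 3.12 (SE 0.16, limma adjusted p = 4.30e-05), with 3.22 on its second probe set. PHLDA3, an inhibitor of the kinase AKT, read 8.95 and 9.10 in HCT116 and 6.42 and 6.74 in Caco-2, a line difference of 2.45 (limma adjusted p = 0.000154). These 3 genes were separated between the lines by far more than the arrays of a line differed.

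BBC3 was higher in HCT116 by 0.89 (limma adjusted p = 0.0112), at 8.95 and 8.37 against 7.88 and 7.66 in Caco-2. It lost the call without the Caco-2 negative array and the block, at 0.78 with an adjusted p of 0.110, and its dimmer probe set differed by 0.10. TRIAP1, an inhibitor of apoptosome formation, was higher by 0.65 (limma adjusted p = 0.0168), but at 0.30 and 0.25 without the HCT116 negative or the Caco-2 BORIS array, each with the block dropped, its adjusted p was 0.387 and 0.636. BAX, which opens the outer mitochondrial membrane, differed by 0.33 (95% interval -0.10 to 0.75), AEN, an apoptosis nuclease gene, by 0.50 (0.08 to 0.92), CYFIP2 by 0.05 (-0.44 to 0.54) and PERP, a desmosome and apoptosis gene, by -0.35 (-0.73 to 0.03). None of these 4 passed, and the brightest and the dimmer BAX probe sets stood at 0.33 and -0.65. A CYFIP2 probe set other than the represented one, above background on every array, stood at 1.49, and the mean of its probe sets passed, at 0.48 (limma adjusted p = 0.0486). Leaving out 1 array and the block gave BAX 0.51 (adjusted p = 0.0366, without the HCT116 negative array), AEN 0.62 (0.031, without the HCT116 BORIS array) and PERP -0.78 (0.0437, without the Caco-2 negative array).

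All 5 death and decoy receptor genes tested were higher in HCT116. FAS, the receptor of FAS ligand, read 9.02 and 8.56 in HCT116 with BORIS and negative siRNA, against 6.96 and 7.12 in Caco-2, a line difference of 1.75 (SE 0.21, limma adjusted p = 0.00141). TNFRSF10A and TNFRSF10B encode the TRAIL receptors that signal death. TNFRSF10A was higher by 1.10 (limma adjusted p = 0.00668) and TNFRSF10B by 0.59 (limma adjusted p = 0.0388). TNFRSF10B lost its call without the block together with any 1 of 3 arrays, at 0.33 without the HCT116 negative array, 0.57 without the Caco-2 BORIS array and 0.62 without the Caco-2 negative array (adjusted p = 0.0851, 0.199 and 0.150), and with the mean of its probe sets, at 0.44. TNFRSF10C and TNFRSF10D encode decoy receptors that bind TRAIL without a working death domain. TNFRSF10D read 9.15 and 10.01 in HCT116 and 7.85 and 7.68 in Caco-2, a line difference of 1.82 (SE 0.26, limma adjusted p = 0.00275). TNFRSF10C read 6.86 and 6.18 in HCT116 and was at background on both Caco-2 arrays. On the values as deposited its line difference was 1.98 (SE 0.26, limma adjusted p = 0.00181). With the Caco-2 values raised to background it is at least 1.60 on the log2 scale, a bound that was not tested. The 4 TNFRSF10 genes are related in sequence, and the represented TNFRSF10B probe set is of the _x_at kind, which can bind related transcripts.

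Among redox and metabolic genes, RRM2B stood out. This gene for a ribonucleotide reductase subunit that supplies nucleotides for repair read 9.97 and 9.85 in HCT116 with BORIS and negative siRNA, against 7.58 and 7.45 in Caco-2, a line difference of 2.39 (SE 0.17, limma adjusted p = 0.000147). All 9 of its probe sets were higher in HCT116, by 1.95 to 2.82. SESN1, a sestrin that restrains mTORC1, was higher by 1.19 (limma adjusted p = 0.00279), while SESN2, of the same family, differed by 0.40 (95% interval -0.03 to 0.82), and passed without the HCT116 BORIS array and the block (0.62, adjusted p = 0.0399). The second SESN2 probe set, above background on every array, went the other way, at -0.51, and the mean of both gave -0.06. TIGAR, a fructose bisphosphatase, was higher by 0.91 (limma adjusted p = 0.00971) and the quinone oxidoreductase gene TP53I3 by 0.76 (limma adjusted p = 0.0204). With the block dropped, TIGAR missed the threshold without the Caco-2 BORIS array (0.82, adjusted p = 0.0736), and TP53I3 without that array or the Caco-2 negative array (0.70 and 0.81, adjusted p = 0.137 and 0.0818).

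The 3 DNA repair genes were higher in HCT116, by similar amounts on their represented probe sets. DDB2, the damage sensor of nucleotide excision repair, read 8.89 and 8.88 in HCT116 with BORIS and negative siRNA and 7.95 and 7.75 in Caco-2, a line difference of 1.04 (limma adjusted p = 0.00526). XPC, its partner in damage recognition, differed by 1.0 (limma adjusted p = 0.00739) and POLH, the translesion polymerase eta gene, by 0.93 (limma adjusted p = 0.0101). Over the probe sets above background on at least 1 array, DDB2 ranged from 1.04 to 1.29, XPC from 0.66 to 1.0 and POLH from 0.77 to 1.67. Without the Caco-2 negative array and the block XPC stood at 0.76 and POLH at 0.74, with adjusted p-values of 0.0944 and 0.113.

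Of the remaining genes, the RNA-binding zinc finger gene ZMAT3 was higher in HCT116 by 0.62 (limma adjusted p = 0.0456). That call ended without the block together with any 1 of 3 arrays, at 0.42 without the HCT116 negative array, 0.65 without the Caco-2 BORIS array and 0.60 without the Caco-2 negative array (adjusted p = 0.106, 0.175 and 0.209). TRIM22, an antiviral ubiquitin ligase gene, read 5.67 and 5.51 in HCT116 and 4.81 and 5.21 in Caco-2, close to background, and differed by 0.58 (95% interval -0.04 to 1.2). GDF15, a secreted stress cytokine, was bright on every array and differed by -0.40 (limma adjusted p = 0.0917). Its line difference was -0.71 between the BORIS siRNA arrays and -0.09 between the negative siRNA arrays. Set against the mean of both Caco-2 arrays, with no siRNA block, the HCT116 BORIS array alone stood at -0.83 (limma adjusted p = 0.000254) and the HCT116 negative array alone at 0.04.

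**Figure D2:**
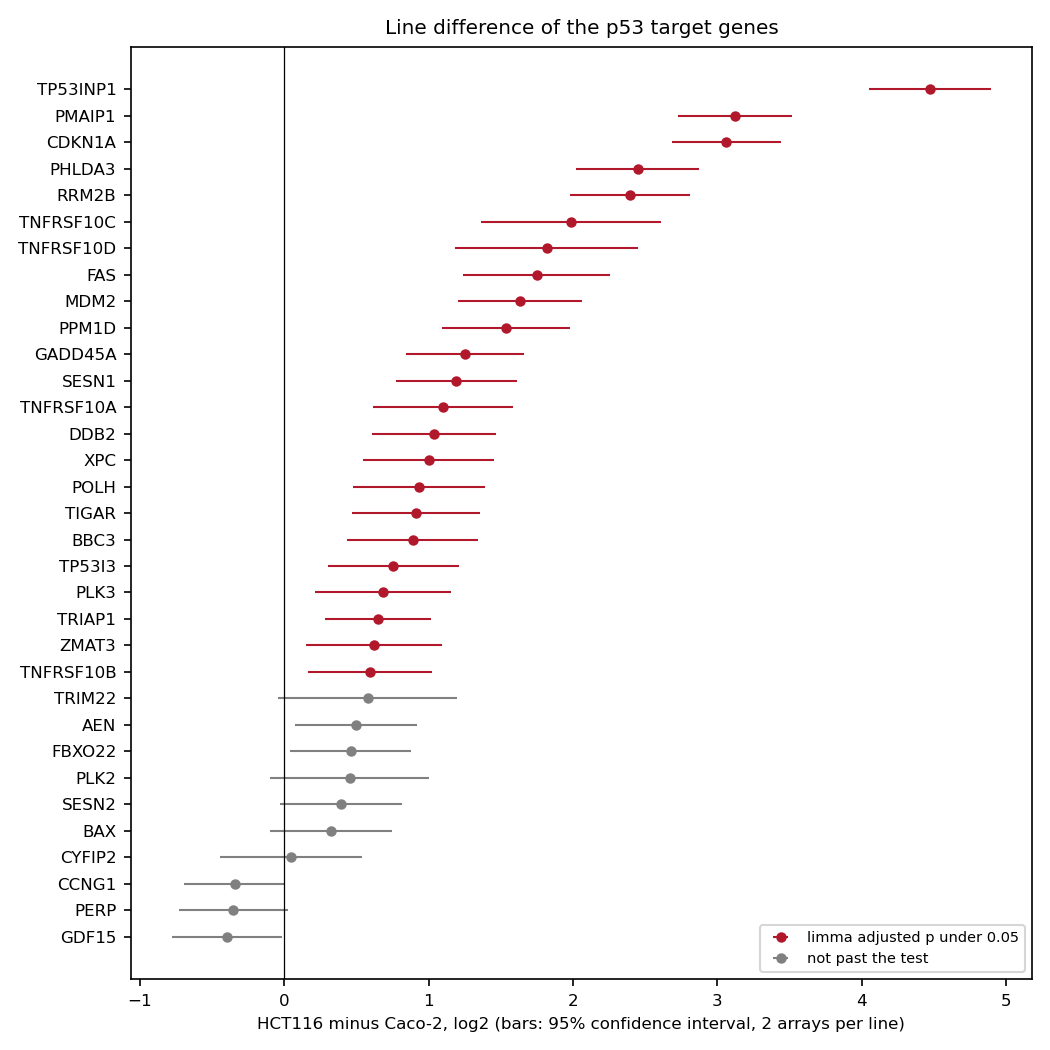
HCT116 minus Caco-2 difference (log2, horizontal axis) of the 33 tested p53 target genes from the limma fit with siRNA as a block, 2 arrays per line; bars are 95% confidence intervals and red marks an adjusted p under 0.05. The 23 red genes all lie right of 0, from 0.59 for TNFRSF10B to 4.47 for TP53INP1, and the 3 genes left of 0, CCNG1, PERP and GDF15, are grey.

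**Figure D3:**
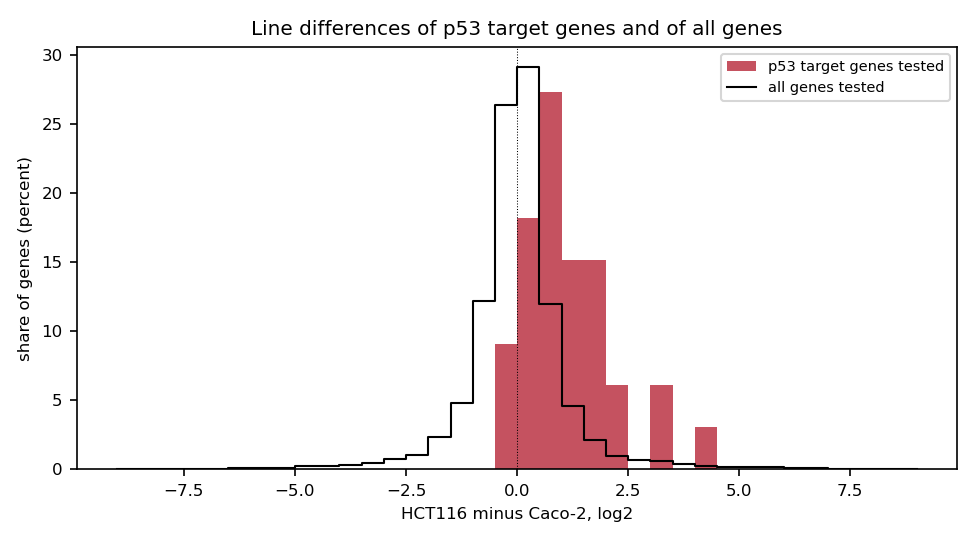
Share of genes (percent, vertical axis) by HCT116 minus Caco-2 difference (log2, bins of 0.5) for the 33 tested p53 target genes (red bars) and all 11165 tested genes (black line). The red bars lie mostly right of 0, with a median of 0.91, while the black line is centred near 0, with a median of 0.01.

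Other genes of the pathway, from lists that exclude the members, were set beside them. Of 32 further p53 target genes tested, 16 were higher in HCT116 and 3 lower, with a median of 0.51, beside shares of 19.4% higher and 19.8% lower over all tested genes. SFN, the 14-3-3 sigma gene that holds cells in G2, was higher by 1.48 (limma adjusted p = 0.000755), the stress transcription factor gene ATF3 by 1.42 (limma adjusted p = 0.00439) and RPS27L by 1.31 (limma adjusted p = 0.000409), while TNFAIP8 was lower, at -1.64 (limma adjusted p = 0.000837). Of 22 regulators of p53, 1 was higher and 6 lower. The higher one was RCHY1, a p53 ubiquitin ligase, at 1.21 (limma adjusted p = 0.00279). Among the lower ones were MDM4, the inhibitory partner of MDM2, at -1.41 (limma adjusted p = 0.00235), and the checkpoint kinase gene CHEK2 at -1.01 (limma adjusted p = 0.00584), which is also counted among the next list. The last list holds genes that p53 represses through CDKN1A and the DREAM complex, most of them with roles in the cell cycle. Of its 23 genes, 10 were lower in HCT116 and 1 higher. The median was -0.27, and 8 of the 23 differences were above 0. E2F1 stood at -1.11 (limma adjusted p = 0.00520), FOXM1 at -1.06 (limma adjusted p = 0.0105) and ECT2 at -1.04 (limma adjusted p = 0.00335). BUB1B was the gene called higher, at 0.61 (limma adjusted p = 0.0333).

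Promoter windows were searched for the p53 half-site consensus, the decamer that p53 binds in pairs and that reads the same on both strands. The windows, from RefSeq on build GRCh38.p14, hold 250 bases before and 50 after a transcript's start, and 27 of the 37 members have 1 or more of them. A half-site was found in 6 of their 40 windows (15%), against 6.63% of all 35116 windows, and the 6 members were FAS, SESN1, AEN, DDB2, PLK2 and FDXR. Pairs of half-sites with a gap of at most 13 bases were found in 10 windows of the whole table, 1 of them at DDB2. The 30 bases around the sites of 4 measured members are given with the half-sites in capitals, so that the DDB2 pair can be compared with the single sites; the PLK2 site stands in its window further on. A match of letters is a description and not evidence of binding, and the binding sites of many of these genes lie outside such windows.
FAS, chr10:88991299-88991328, plus strand: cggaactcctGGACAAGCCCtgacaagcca
SESN1, chr6:109009018-109009047, minus strand: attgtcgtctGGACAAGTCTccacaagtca
AEN, chr15:88621296-88621325, plus strand: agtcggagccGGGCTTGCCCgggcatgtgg
DDB2, chr11:47214975-47215004, plus strand: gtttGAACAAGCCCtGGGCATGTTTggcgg
In the line comparison FAS, SESN1 and DDB2 were higher in HCT116 by 1.75, 1.19 and 1.04, and AEN differed by 0.50 without passing the test.

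The study's own comparison was BORIS siRNA against negative siRNA within each line. Each group has 1 array, so these differences cannot be checked against replicates and carry no p-value, and a gene is given here as called when it was expressed and differed by at least 1.5-fold, 0.585 on the log2 scale. Expressed here means that the probe set lay at or above the array's median on 1 or both arrays of that line. In HCT116, 33 members were expressed, and 5 of them were lower and 1 higher with BORIS siRNA at 1.5-fold, shares of 15.2% and 3%, where 9.18% of all 10631 expressed genes were lower and 4.36% higher. In Caco-2, 30 members were expressed, and 2 were higher and 1 lower, shares of 6.7% and 3.3%, where 2.78% of all 10389 expressed genes were higher and 1.14% lower. Each of these shares rests on 5 genes or fewer and is near the background. No member reached 2-fold in either line, where 0.583% of expressed genes were 2-fold higher and 1.45% lower in HCT116, and 0.404% and 0.0481% in Caco-2. The median difference of the expressed members was 0.04 in HCT116 and 0.04 in Caco-2, against -0.05 and 0.00 for all expressed genes, and when a gene's probe sets were averaged the members' medians were -0.04 and -0.005. The poly-A spike-in controls read 0.77 higher on the HCT116 BORIS array than on the HCT116 negative array and differed by -0.06 in Caco-2, and their part in these differences was not tested.

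**Figure D4:**
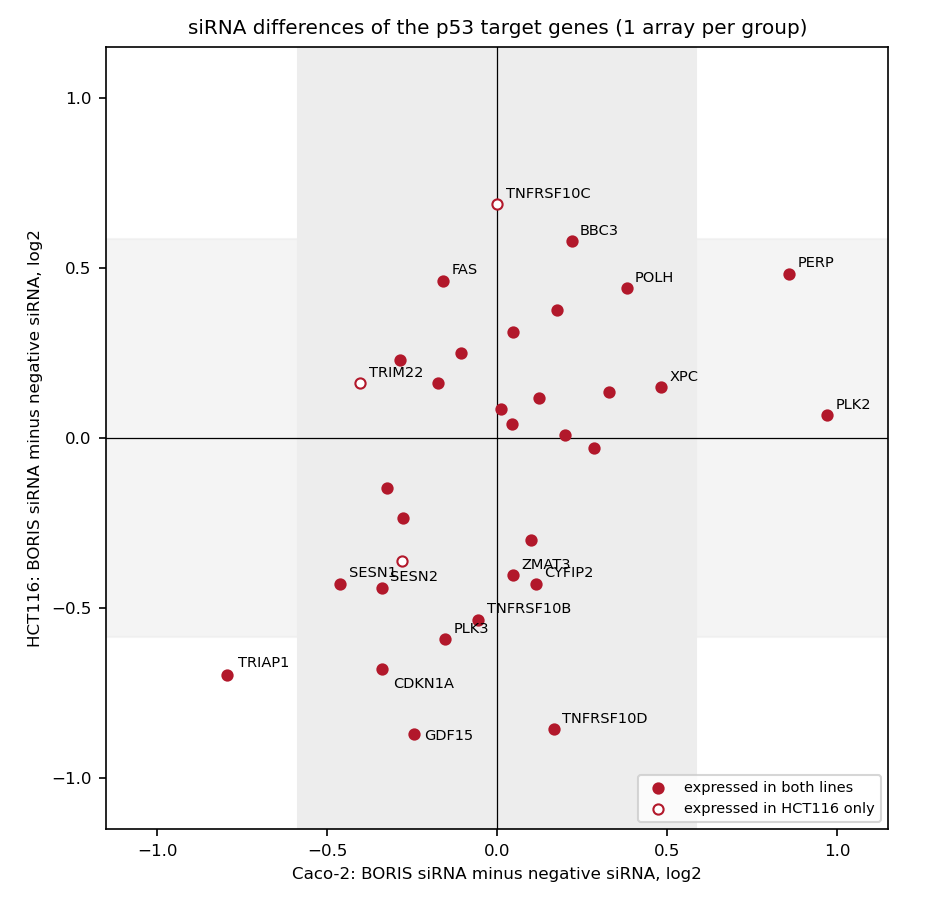
BORIS siRNA minus negative siRNA difference (log2) in HCT116 (vertical axis) against Caco-2 (horizontal axis) for the 33 p53 target genes expressed in HCT116; open circles are the 3 not expressed in Caco-2, and grey bands mark differences under 1.5-fold. TRIAP1 is the only gene outside both bands, at -0.70 and -0.79.

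CDKN1A was lower with BORIS siRNA in HCT116. It read 11.67 with BORIS siRNA and 12.35 with negative siRNA there, a difference of -0.68, and its second probe set gave -0.65. In Caco-2 the same 2 probe sets gave -0.34 and -0.51, below the 1.5-fold level. Of the other arrest genes, PLK3 read 7.38 with BORIS siRNA and 7.97 with negative siRNA in HCT116, a difference of -0.59, and in Caco-2 it differed by -0.15. The PLK3 value rests on 1 probe set and fell short of 1.5-fold after quantile normalization (-0.52) and after a loess correction (-0.53). GADD45A differed by -0.30 in HCT116 and 0.10 in Caco-2.

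PLK2 had the widest difference of any member in Caco-2, and almost none in HCT116. It read 10.65 with BORIS siRNA and 9.68 with negative siRNA in Caco-2, a difference of 0.97 or 1.96-fold, against 10.66 and 10.59 in HCT116, a difference of 0.07. All 4 PLK2 probe sets were higher in Caco-2, by 0.90 to 1.14, and they differed by 0.06 to 0.17 in HCT116. The Caco-2 value with BORIS siRNA was level with both HCT116 arrays, whereas the Caco-2 negative array lay below them. Whether the difference of the lines exceeds array error was not tested, since each line has 1 array per siRNA.

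PERP was also higher in Caco-2, at 11.22 with BORIS siRNA and 10.36 with negative siRNA, a difference of 0.86. In HCT116 it read 10.67 and 10.19, a difference of 0.48. Its 3 probe sets were all higher in both lines, by 0.67 to 0.86 in Caco-2 and by 0.05 to 0.62 in HCT116. A PERP probe set other than the represented one passed 1.5-fold in both lines, at 0.62 in HCT116 and 0.86 in Caco-2. TRIAP1 was lower in both lines, and by the represented probe sets it was the only member past 1.5-fold in each. Of the 9855 genes expressed in both lines, 0.173% were lower past 1.5-fold in each and 0.477% higher. TRIAP1 read 10.03 with BORIS siRNA and 10.73 with negative siRNA in HCT116, and 9.33 and 10.12 in Caco-2. The differences of -0.70 and -0.79 rest on 1 probe set of the _s_at kind, which can bind related transcripts. The other intrinsic apoptosis genes stayed under 1.5-fold, BBC3 coming nearest to it at 0.58 in HCT116 and 0.22 in Caco-2, with a dimmer probe set at -0.08 and -0.12. BBC3 passed 1.5-fold in HCT116 after quantile normalization (0.63) and the loess correction (0.64).

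Among the receptor genes, TNFRSF10D was lower with BORIS siRNA in HCT116, at 9.15 with BORIS siRNA and 10.01 with negative siRNA, a difference of -0.86. Its second probe set gave -0.54 there, and both probe sets differed little in Caco-2, at 0.17 and 0.05. TNFRSF10C was higher in HCT116, at 6.86 with BORIS siRNA and 6.18 with negative siRNA, a difference of 0.69. It was at background in Caco-2, its other HCT116 probe sets were below background, and the mean of its probe sets differed by 0.35. TNFRSF10B differed by -0.53 in HCT116 and -0.06 in Caco-2, with all 3 of its probe sets lower in HCT116. FAS differed by 0.46 in HCT116 and -0.16 in Caco-2, and TNFRSF10A by 0.23 and -0.29. The second FAS probe set gave 0.38 in HCT116 and 0.07 in Caco-2.

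GDF15 had the lowest difference of any member in HCT116. It read 11.55 with BORIS siRNA and 12.42 with negative siRNA there, a difference of -0.87 or 1.83-fold, against 12.26 and 12.50 in Caco-2, a difference of -0.25. All 5 GDF15 probe sets were lower in both lines, with differences of -0.95 to -0.46 in HCT116 and -0.30 to -0.17 in Caco-2. The sestrin genes also differed in the same direction in both lines without reaching 1.5-fold, SESN1 at -0.43 in HCT116 and -0.46 in Caco-2 and SESN2 at -0.44 and -0.34. MDM2 differed by 0.13 and 0.33, PPM1D by -0.03 and 0.29, RRM2B by 0.12 in each line and PMAIP1 by 0.08 and 0.01. The probe sets of MDM2 and RRM2B disagreed in sign in both lines, from -0.55 to 0.65 in HCT116 for MDM2 and from -0.46 to 0.28 there for RRM2B. Of the 3 repair genes, POLH differed by 0.44 and 0.38, XPC by 0.15 and 0.48 and DDB2 by 0.01 and 0.20. All 3 were thus higher in both lines on the represented probe sets. Another POLH probe set, above background on every array, went the other way, at -0.45 in HCT116 and -0.40 in Caco-2. The second DDB2 probe set gave 0.24 and -0.0008.

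**Figure D5:**
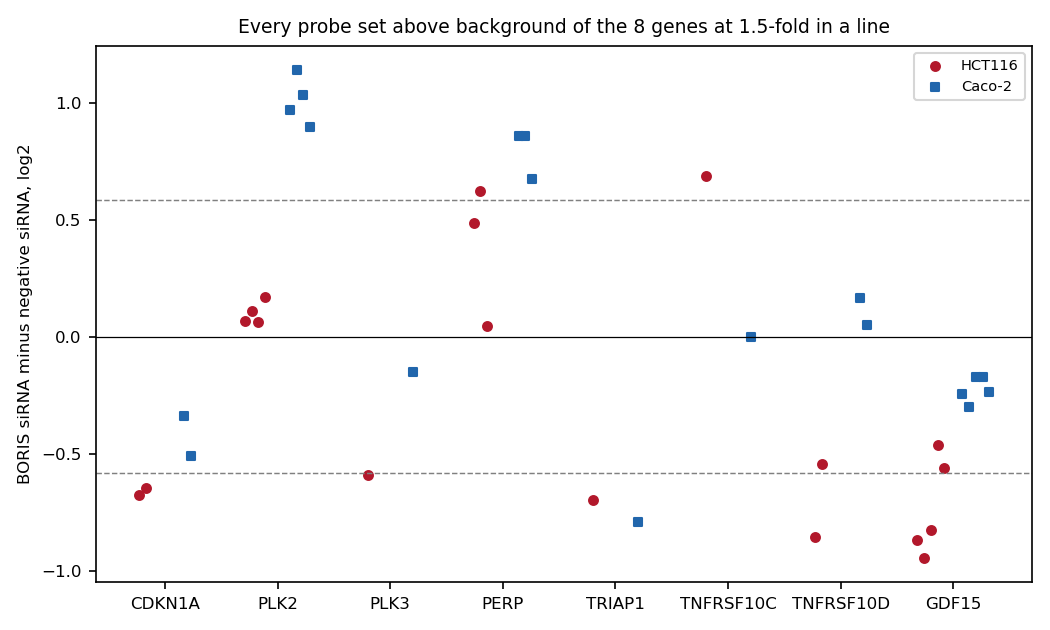
BORIS siRNA minus negative siRNA difference (log2, vertical axis) of every probe set above background on at least 1 array, for the 8 p53 target genes called in a line; circles are HCT116, squares are Caco-2, and dashed lines mark 1.5-fold. All probe sets of CDKN1A and GDF15 lie below 0 and all probe sets of PLK2 and PERP above 0 in both lines, while PLK3, TRIAP1 and TNFRSF10C have 1 probe set each.

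Promoter windows of 5 called members, PLK2, PERP, TRIAP1, CDKN1A and GDF15, are given here because BORIS and CTCF have closely similar DNA-binding zinc fingers. TNFRSF10D, also called with agreeing probe sets, is named only. The 12-base CTCF core CCANNAGNNGGC was searched on both strands and found in 2.41% of all windows and in 0 of the 40 windows of the members. Capitals mark the p53 half-site in the PLK2 window, which starts at position -132 from the transcript's start; the other 4 windows hold none. That a motif is not found says only that its letters are not in these 300 bases.
PLK2, chr5:58460037-58460336, minus strand: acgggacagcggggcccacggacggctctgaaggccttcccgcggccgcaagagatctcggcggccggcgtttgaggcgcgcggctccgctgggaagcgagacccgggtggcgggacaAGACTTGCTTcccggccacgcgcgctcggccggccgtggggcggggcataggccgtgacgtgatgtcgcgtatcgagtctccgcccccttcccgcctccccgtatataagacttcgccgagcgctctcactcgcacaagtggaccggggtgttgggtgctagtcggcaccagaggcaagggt
PERP, chr6:138107370-138107669, minus strand: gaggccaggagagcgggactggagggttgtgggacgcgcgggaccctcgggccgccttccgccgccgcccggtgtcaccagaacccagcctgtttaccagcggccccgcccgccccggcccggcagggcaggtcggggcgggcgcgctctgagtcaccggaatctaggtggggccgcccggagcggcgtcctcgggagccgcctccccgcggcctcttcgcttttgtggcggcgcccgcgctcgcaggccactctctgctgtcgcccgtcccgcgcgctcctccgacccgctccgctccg
TRIAP1, chr12:120446335-120446634, minus strand: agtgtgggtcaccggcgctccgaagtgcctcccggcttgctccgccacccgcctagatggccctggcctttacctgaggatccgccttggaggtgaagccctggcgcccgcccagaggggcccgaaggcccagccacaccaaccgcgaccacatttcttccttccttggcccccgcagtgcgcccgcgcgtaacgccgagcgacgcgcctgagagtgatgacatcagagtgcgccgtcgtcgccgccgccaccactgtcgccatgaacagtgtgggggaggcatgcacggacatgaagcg
CDKN1A, chr6:36678464-36678763, plus strand: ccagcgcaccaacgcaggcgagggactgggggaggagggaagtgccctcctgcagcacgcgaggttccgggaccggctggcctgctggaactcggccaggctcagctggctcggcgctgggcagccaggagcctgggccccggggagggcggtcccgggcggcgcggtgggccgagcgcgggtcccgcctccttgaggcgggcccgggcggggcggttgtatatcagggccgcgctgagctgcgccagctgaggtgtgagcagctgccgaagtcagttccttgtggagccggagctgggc
GDF15, chr19:18385908-18386207, plus strand: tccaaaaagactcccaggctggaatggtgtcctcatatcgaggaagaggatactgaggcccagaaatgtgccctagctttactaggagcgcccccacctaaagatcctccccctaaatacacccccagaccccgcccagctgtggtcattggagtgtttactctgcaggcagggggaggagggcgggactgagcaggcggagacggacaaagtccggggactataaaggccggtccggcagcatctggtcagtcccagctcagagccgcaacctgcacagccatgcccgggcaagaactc
With BORIS siRNA these genes differed by 0.07, 0.48, -0.70, -0.68 and -0.87 in HCT116 and by 0.97, 0.86, -0.79, -0.34 and -0.25 in Caco-2.

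A difference common to both lines was tested in the same limma fit, with the line as the block. No member passed, with 0 of 33 at an adjusted p under 0.05, and 0% of the 11165 genes tested passed. At an unadjusted p under 0.05 there were 5 members, and 6% of all tested genes. The 5 were TRIAP1 at -0.75 (SE 0.15), PERP at 0.67 (SE 0.16), GDF15 at -0.56 (SE 0.16), CDKN1A at -0.51 (SE 0.16) and SESN1 at -0.44 (SE 0.17), each with a limma adjusted p of 0.769. GDF15, TRIAP1 and PERP passed after quantile normalization (limma adjusted p = 0.00294, 0.0112 and 0.0140), where 106 genes passed in all. They also passed after a loess correction (limma adjusted p = 0.0225, 0.0342 and 0.0342), where 57 did. Their differences hardly moved, at -0.57, -0.74 and 0.67 after quantile normalization and -0.56, -0.74 and 0.68 after the loess correction. The total degrees of freedom of the fit, however, rose from 6.49 as deposited to 652 and 56.7. These calls therefore do not show a larger shared difference. Over the 30 members expressed in both lines the siRNA differences of HCT116 and Caco-2 were correlated with Pearson's r at 0.49 and Spearman's rho at 0.48, against 0.17 and 0.14 over 9855 genes. This is a description across genes, which are not independent replicates, although the lines share no array. The difference had the same sign in both lines for 21 of the 30 members (70%), and for 54.2% of all genes expressed in both. Over the 32 further p53 target genes, r was 0.01 and rho 0.05, with 13 of the same sign (40.6%). For 21 p53 regulators they were 0.10 and 0.06, with 13 (61.9%). For the 23 genes repressed through CDKN1A and the DREAM complex they were 0.54 and 0.59, with 19 (82.6%). Whether the agreement between the lines differs among these lists was not tested.

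In the lists beside the members, differences at 1.5-fold with BORIS siRNA were also few, beside 9.18% lower and 4.36% higher over all expressed genes in HCT116 and 1.14% and 2.78% in Caco-2. Of the further p53 target genes, 3 of 32 were lower and 1 higher in HCT116, with THBS1, the thrombospondin gene, at -0.87, ATF3 at -0.65, FUCA1 at -0.60 and DGKA at 0.60, and 0 of 32 were called in Caco-2. Of the p53 regulators, 3 of 21 were lower in HCT116, namely CREBBP, the coactivator that acetylates p53, at -1.07, the p53 kinase gene HIPK2 at -0.87 and PPP1R13L, an inhibitor of p53, at -0.66. They differed by 0.08, 0.08 and 0.22 in Caco-2, where 0 of 22 regulators were called and ATM, the damage kinase gene, came nearest at 0.57. Of the 23 genes repressed through CDKN1A and the DREAM complex, 3 were lower in HCT116, FOXM1 at -0.68, KIF20A at -0.65 and CDC20 at -0.63, and 0 were called in Caco-2.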

How the data were processed

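Total RNA was measured on 4 PrimeView arrays, 1 per combination of line and siRNA. What the authors deposited is 1 log2 value for each probe set and array. How they corrected background, normalized and summarised is not given in the sources used here. Per the labels' protocols, RNA was extracted with TRIzol and labelled with a 3' in vitro transcription kit. Depth has no meaning for arrays, and their number limits the precision.

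Of 49395 probe sets, 44988 were paired with 1 gene by the platform's annotation, 1832 with several and 2569 were not listed; Entrez IDs changed 0 symbols. Genes reaching the array median on at least 1 array entered a linear model with terms for line and siRNA (limma 3.58.1 under R 4.3.3, eBayes with trend), with Benjamini-Hochberg adjustment over all tested genes. The fits were tested on simulated data. The members, lists and the 1.5-fold level were chosen with earlier results of these data known. Named are members called or at background and, per other list, up to 4 genes with the largest differences. Alternatives were other filters, probe set choices, normalizations, 16 added on the linear scale, no trend, no block, 2-fold, values raised to background, and each array left out with line as the only term.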

Additional observations from a re-analysis of the deposited data

Results flagged for a closer look

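By their represented probe sets, 2 members expressed in both lines differed with BORIS siRNA in opposite directions in the lines. The siRNA differences of each were at least 1.5-fold apart between the lines. TNFRSF10D differed by -0.86 in HCT116 and 0.17 in Caco-2, which sets the lines apart by -1.02 on the log2 scale. FAS differed by 0.46 in HCT116 and -0.16 in Caco-2, which sets them apart by 0.62. The second FAS probe set gave 0.38 and 0.07, in the same direction in both lines. With 1 array per group, neither difference between the lines was tested.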

How the results depend on the processing

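The members higher in HCT116 numbered 20 to 26 under the other settings and 16 to 25 with each array left out in turn, where line was the only term, so that the siRNA block was dropped with the array (20 with the block alone dropped), and 14 of the 23 called members passed under each alternative that gave a value. A single member was lower in HCT116 with the mean of all probe sets (PERP, 1), without _x_at and _s_at probe sets (GDF15, 1), after quantile normalization and after the loess correction (GDF15, 1 each), and 0 to 1 were with an array left out. Over all genes, 2679 to 5313 passed the line test with an array left out, against 4373 as deposited; in these fits the line with 1 array is assumed to vary like the other. The shared siRNA effect gave 3 members and 106 genes after quantile normalization, and 3 members and 57 genes after the loess correction. In HCT116, members higher at 1.5-fold numbered 0 with the mean of all probe sets or 16 added on the linear scale, and 2 without _x_at and _s_at probe sets, after quantile normalization or after the loess correction. In Caco-2, 0 members were lower without _x_at and _s_at probe sets, where TRIAP1 has no value. At 2-fold, 0 members were called in either direction in either line. Among members that missed the line test, AEN, FBXO22 and PLK2 passed as higher after quantile normalization and the loess correction, AEN, FBXO22 and CYFIP2 with the mean of all probe sets. The fits after quantile normalization and the loess correction had 652 and 56.7 total degrees of freedom, against 6.49 as deposited. The part of that rise in the calls gained there was not tested. No called member turned sign under any alternative run. The labels number no replicates, and the only pairing is the BORIS and negative array of each line, held by the blocks. Without its block the shared siRNA effect gave 0 members and 0 genes.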
